A study of Homo sapiens with 24 samples.

Results

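The steady-state difference between 2 human small cell lung cancer lines, DMS454 and H1694, was described from RNA sequencing of total RNA. Read counts scaled to a common library total (CPM, reads per 1000000) were set side by side in 12 of the 24 libraries of the series, 6 of each line. The libraries fall into 4 groups of 3, which the labels title DMS454 CRISPR, DMS454 control, H1694 CRISPR and H1694 control. CRISPR titles go with a genotype label of a HEPACAM2 knockdown, and control titles with a control genotype. No other agent, dose or time is given, each line was grown in the medium its supplier recommends, and the suppliers differ (Sigma for DMS454, ATCC for H1694). Each line is 1 cell line from 1 tumour, so the p-values below measure the spread between its libraries and do not speak for other tumours of the same kind. Supplier, medium and line cannot be told apart.

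A gene was taken as a line difference only where DMS454 and H1694 differed in the same direction in both arms, that is between the CRISPR libraries and again between the control libraries, so that the arm titles do not matter. In each arm this asked for an adjusted p under 0.05 in limma (Benjamini-Hochberg over all genes tested), an absolute difference of at least 1 on the log2(CPM + 1) scale and no overlap between the libraries compared. Of 60668 genes in both tables, 18524 had a mean of at least 1 CPM in 1 of the 4 groups and were tested, and 7486 of them met the rule. AUH lay just inside the floor, with differences of 1.18 in the CRISPR arm and 1.0001 in the control arm, and NACA just outside, with 1.02 and 0.999.

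Small cell lung cancer is a neuroendocrine tumour whose cells make hormone granules and peptide hormones. Its cell lines are commonly sorted by the transcription factor they use most: NEUROD1, a basic helix-loop-helix factor that binds E-box sequences, marks a neuroendocrine form, and POU2F3 and YAP1 mark the forms that lack neuroendocrine genes. The tumour typically has lost RB1 function and often carries extra copies of 1 member of the MYC family.

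The lines differed over a large part of the transcriptome, and the arms within a line differed in far fewer genes. Between the control libraries 8281 genes were called (44.7% of those tested), between the CRISPR libraries 8508 (45.9%), of which 4864 (26.3%) were higher in DMS454, and over all 12 libraries 8365 (45.2%). The 7486 genes called in both arms were 40.4% of those tested; 4202 (22.7%) were higher and 3284 (17.7%) lower in DMS454. No gene was called in opposite directions, while 795 were called in the control arm only and 1022 in the CRISPR arm only. The median difference over all genes tested was 0.14 and the median absolute difference 0.89, and these stand beside the list values below as the background. By comparison, the CRISPR libraries differed from the control libraries of their own line in 107 genes in DMS454 (0.578%; 46 higher, 0.248%, and 61 lower, 0.329%) and in 69 genes in H1694 (0.372%). Without the third DMS454 CRISPR library the count in DMS454 was 165, and it was 335 with DESeq2, 354 with edgeR and 385 with limma-voom, while these tools gave 158, 209 and 252 in H1694.

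Some of the genes were on in 1 line and off in the other. Among 14224 protein-coding genes tested, 3047 (21.4%) were higher and 2792 (19.6%) lower in DMS454, an order that depends on the scaling, as given for the chromosomes below. A difference of at least 4, which is 16-fold on the log2(CPM + 1) scale, was reached by 492 of the 3047 higher genes and by 517 of the 2792 lower genes. Most called genes thus differed by less. No read was found in any H1694 library for 130 protein-coding genes with a mean of at least 10 CPM in DMS454, and the reverse held for 43 genes. Among 2716 long intergenic and antisense transcripts, 754 (27.8%) were higher and 303 (11.2%) lower in DMS454. Antisense transcripts are uncertain, since the strand setting of the counting is not given in the sources used here.

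**Figure D1:**
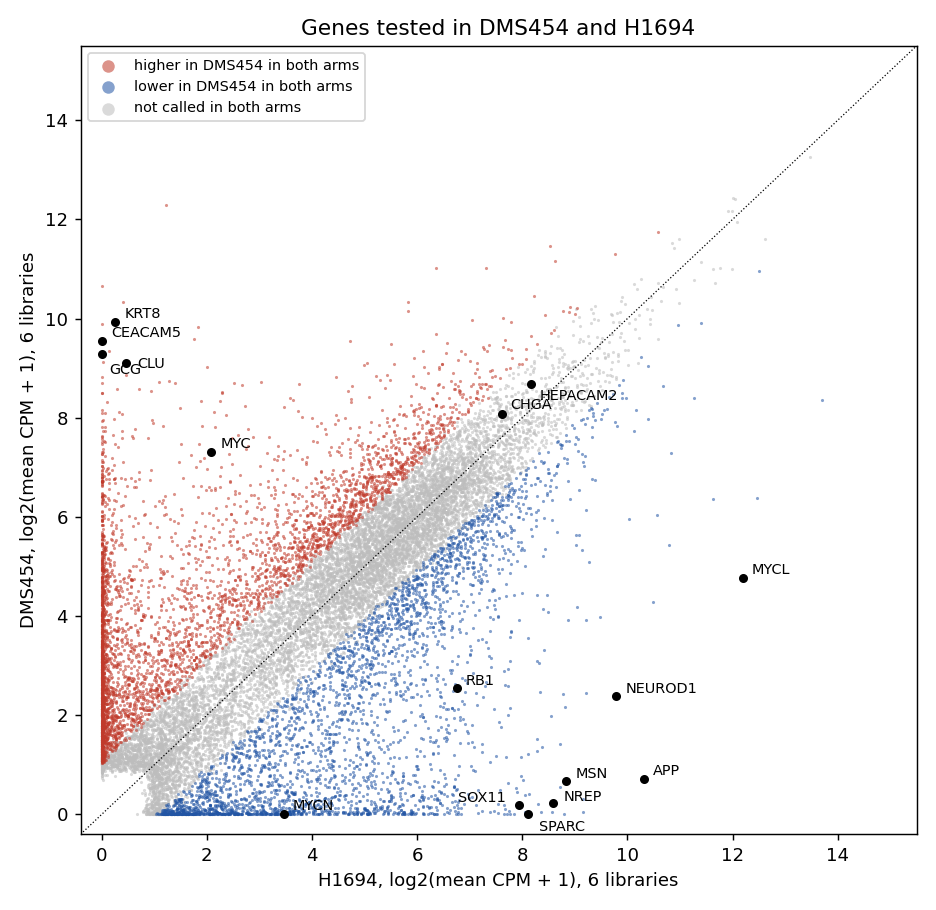
Mean level in DMS454 (vertical axis) against mean level in H1694 (horizontal axis), each as log2(mean CPM + 1) over 6 libraries, for the genes tested (sex-informative genes left out). Red and blue points are the 4202 genes higher and the 3284 genes lower in DMS454 in both arms, grey points are the other genes, and black points are named; KRT8 and CEACAM5 lie at the upper left, NEUROD1 and APP at the lower right, and CHGA near the dotted line of equal levels.

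Total reads were 15652553 to 30241598 per library in DMS454 and 19682771 to 31770858 in H1694. Libraries of 1 group correlated at r = 0.994 to 0.998 over genes, libraries of the other arm of the same line at 0.991 to 0.996, and libraries of the other line at 0.689 to 0.700. The first principal component, which held 97.3% of the variance, parted the lines. The third DMS454 CRISPR library stood apart from the other libraries of its group on the second component (0.937% of the variance); without it, 4204 genes were higher and 3251 lower in DMS454 in both arms. Genes of the mitochondrial genome took 3.14% to 5.42% of reads in DMS454 and 3.21% to 6.29% in H1694. The first H1694 CRISPR library also differed from its group, with 3.21% of such reads against 5.50% and 6.29%. Without that library, 4182 genes were higher and 3282 lower in DMS454 in both arms. Histone genes took 0.135% to 0.173% in DMS454 and 0.245% to 0.309% in H1694, and their part in the other differences was not tested.

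HEPACAM2, the gene named in the CRISPR genotype and a cell-surface protein of the immunoglobulin family, went against the arm labels in both lines. In DMS454 it had 539, 533 and 496 CPM in the libraries labelled CRISPR, against 296, 302 and 307 CPM in those labelled control. In H1694 the values were 415, 430.3 and 422 CPM in the libraries labelled CRISPR, against 144, 149 and 155 CPM in those labelled control. The level was higher under the knockdown label in each line, with no overlap. Between the lines, the difference was 0.31 in the CRISPR arm and 1.01 in the control arm, higher in DMS454, so HEPACAM2 did not meet the rule in both arms. All arm names below are those of the labels.

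Both lines expressed markers of neuroendocrine cells, the cells small cell lung cancer resembles. The 8 neuroendocrine markers examined here each averaged at least 1 CPM in both lines. Chromogranin A (CHGA), a granule protein, had 232, 252 and 327 CPM in DMS454 libraries, against 181, 192 and 209.7 CPM in H1694 libraries, as the lowest, median and highest of 6 libraries. Synaptophysin (SYP), a vesicle membrane protein, had 164, 171 and 185 CPM in DMS454 libraries, against 317, 334 and 351 CPM in H1694 libraries. These classical markers lay within 2-fold of each other in the lines, at differences of 0.46 and -0.94, and neither reached the floor of 1; SCG3 (0.22), a granule protein, and the ubiquitin hydrolase UCHL1 (0.69) did not either. With TMM or median-ratio scaling and with edgeR, DESeq2 or limma-voom, SYP was called lower in DMS454. INSM1, a neuroendocrine transcription factor, had 1066, 1155 and 1167 CPM in DMS454 libraries, against 399, 439 and 508 CPM in H1694 libraries, a difference of 1.38 (SE 0.04, adjusted p = 8.6e-15). NCAM1, the adhesion molecule also known as CD56, had 20.3, 29.3 and 41.5 CPM in DMS454 libraries, against 164, 198 and 224 CPM in H1694 libraries, a difference of -2.70 (SE 0.055, adjusted p = 9.3e-17). Among neuroendocrine markers INSM1 was thus higher and NCAM1 lower in DMS454.

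Markers of other cell types were few. Of 7 alveolar and airway markers, only FOXJ1, a factor of ciliated cells, averaged at least 1 CPM, in DMS454 alone, and their summed level was 38.1 to 55.1 CPM in DMS454 and 0.0993 to 0.762 CPM in H1694. Of 5 fibroblast markers, 2 reached 1 CPM in each line, with a sum of 5.68 to 7.36 CPM in DMS454 and 44.3 to 61.02 CPM in H1694, where COL3A1 and LUM had no read. Of 9 blood and endothelial markers, none reached 1 CPM in DMS454 (sum 0.703 to 1.62 CPM) and CDH5 alone did so in H1694 (sum 131 to 156 CPM), where CD3E and HBB had no read. The part of such cells in any difference was not tested.

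The neuroendocrine factor NEUROD1 was almost off in DMS454 and abundant in H1694. NEUROD1 had 2.87, 3.84 and 5.89 CPM in DMS454 libraries, against 851, 889 and 913 CPM in H1694 libraries, a difference of -7.45 (SE 0.058, adjusted p = 9.7e-22). The libraries of the lines did not overlap, and per kilobase of exon the median level was 1.16 CPM per kb in DMS454 and 268 CPM per kb in H1694. DLL3, a Notch ligand that acts within the cell, went the other way and had 92.1, 97.04 and 108 CPM in DMS454 libraries, against 20.05, 24.9 and 29.5 CPM in H1694 libraries, a difference of 1.95 (SE 0.04, adjusted p = 8.0e-17).

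Most markers fixed for the forms without neuroendocrine genes were low or off. MYC and AVIL, also among these markers, were exceptions in DMS454. MYC had 138 to 176 CPM in DMS454 libraries and 1.99 to 4.42 CPM in H1694 libraries. AVIL had 40.7 to 57.4 CPM in DMS454 libraries and 0.862 to 2.24 CPM in H1694 libraries. POU2F3 did not exceed 0.105 CPM in a DMS454 library or 0.198 CPM in an H1694 library and was not tested. YAP1, the Hippo pathway coactivator, had 11.3, 14.9 and 19.2 CPM in DMS454 libraries, against no read in any H1694 library, which is at least 758-fold higher against a floor of 3 reads over the 6 H1694 libraries (0.0202 CPM). Its paralog WWTR1, also called TAZ, had 0.958, 1.19 and 2.28 CPM in DMS454 libraries, against 0, 0.0421 and 0.108 CPM in H1694 libraries; the call was lost without the first DMS454 control library. REST, the repressor of neuronal genes, had 0.508, 0.771 and 0.958 CPM in DMS454 libraries, against 5.21, 5.84 and 6.55 CPM in H1694 libraries, a difference of -1.99. VIM, AXL and CD44, genes of mesenchymal-like states, stayed below 1 CPM in all 12 libraries. A low YAP1 level was therefore found in DMS454 only, and a REST level above 1 CPM in H1694 only.

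**Figure D2:**
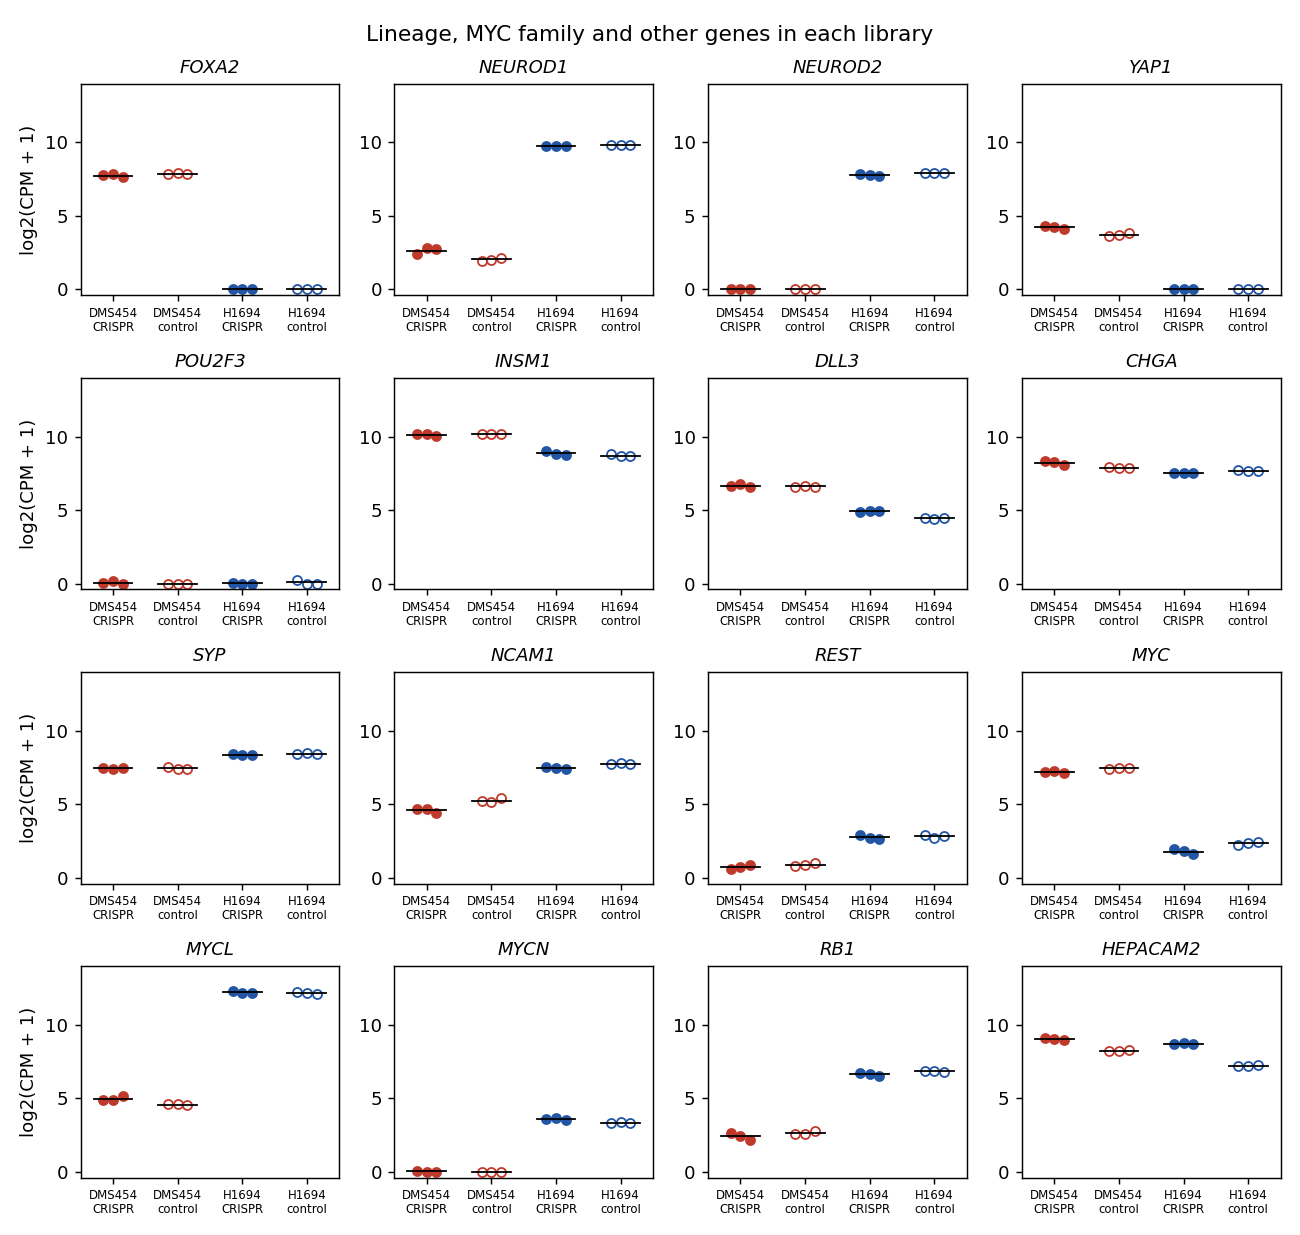
Level of 16 genes as log2(CPM + 1) in each of the 12 libraries, DMS454 in red and H1694 in blue, with filled points for the libraries labelled CRISPR, open points for those labelled control, and a bar at the mean of 3 libraries. FOXA2, MYC and YAP1 lie higher in DMS454, NEUROD1, NEUROD2, MYCL, MYCN, RB1 and REST higher in H1694, CHGA and SYP differ by less than 1, and HEPACAM2 lies higher in the libraries labelled CRISPR within each line.

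Among lineage transcription factors as a list, both directions were filled. Of 47 lineage transcription factors tested (56 listed), 19 were higher and 17 lower in DMS454, with a median difference of 0.32. FOXA2, a pioneer factor of foregut endoderm, had 200.4, 230.5 and 238 CPM in DMS454 libraries, against no read in any H1694 library, at least 11026-fold higher. NEUROD2, a neuronal relative of NEUROD1, had no read in any DMS454 library, against 213, 235 and 240.1 CPM in H1694 libraries, at least 10321-fold lower against a floor of 0.0223 CPM. SOX11, a factor of developing neurons, had 0.0526, 0.112 and 0.312 CPM in DMS454 libraries, against 225, 244 and 262 CPM in H1694 libraries, a difference of -7.76 (SE 0.056, adjusted p = 4.8e-22). TCF4, an E protein that pairs with helix-loop-helix factors, had 0.192, 0.335 and 0.661 CPM in DMS454 libraries, against 212, 236 and 265 CPM in H1694 libraries, a difference of -7.46 (SE 0.051, adjusted p = 2.5e-22). Of these named factors, FOXA2 was thus read in DMS454 alone, and NEUROD2, SOX11 and TCF4 only or almost only in H1694.

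The lines also differed in the MYC family member of highest level. MYC had 138, 159 and 176 CPM in DMS454 libraries, against 1.99, 3.26 and 4.42 CPM in H1694 libraries, a difference of 5.26 (SE 0.058, adjusted p = 5.4e-20). MYCL had 22.1, 25.7 and 34.03 CPM in DMS454 libraries, against 4467, 4644 and 5006 CPM in H1694 libraries, a difference of -7.43 (SE 0.043, adjusted p = 5.0e-23). MYCN had 0, 0 and 0.0391 CPM in DMS454 libraries, against 8.99, 9.72 and 11.9 CPM in H1694 libraries, a difference of -3.45 (SE 0.062, adjusted p = 1.8e-17). MYC was therefore the member of highest level in DMS454, with 53.1 CPM per kb against 5.07 for MYCL, and MYCL in H1694, with 917 CPM per kb against 1.09 for MYC and 3.74 for MYCN. Of 13 MYC family and partner genes tested (13 listed), 2 were higher and 3 lower in DMS454: MLXIP, a glucose-sensing relative, was the other higher gene (2.55) and MLXIPL, its paralog, the other lower one (-3.30). Copy number was not analysed here.

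RB1, a tumour suppressor typically lost in this cancer, was lower in DMS454. RB1, which holds cells before S phase, had 3.51, 4.92 and 5.94 CPM in DMS454 libraries, against 91.8, 109 and 116 CPM in H1694 libraries, a difference of -4.22 (SE 0.072, adjusted p = 1.0e-17). A level of RNA does not show whether a functional protein was made in H1694. Of 24 RB pathway and G1 genes tested (26 listed), 3 were higher and 5 lower in DMS454. Among them CDKN1C, a cell cycle inhibitor, had 0.889, 1.15 and 1.47 CPM in DMS454 libraries, against 19.9, 23.6 and 26.8 CPM in H1694 libraries. CDKN1A, the inhibitor p21, had 4.85, 8.44 and 9.05 CPM in DMS454 libraries, against 107, 218 and 322 CPM in H1694 libraries, a difference of -4.53. In H1694 it had 127, 119 and 107 CPM in the libraries labelled CRISPR. Those labelled control had 322, 317 and 310 CPM, so the H1694 median of 218 CPM lay between the arms. Its line difference in each arm is given below.

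The genes furthest up in DMS454 were mostly genes of epithelium, detoxification and hormone secretion. ALDH1A1, which oxidizes retinaldehyde, had 1529.5, 1627 and 1661 CPM in DMS454 libraries, against no read in any H1694 library, which is at least 79769.5-fold higher. AMBP, the precursor of alpha-1-microglobulin and bikunin, had 1171, 1303 and 1388 CPM in DMS454 libraries, against 0.102, 0.353 and 0.441 CPM in H1694 libraries, a difference of 9.93 (SE 0.056, adjusted p = 3.6e-23). SCNN1A, a subunit of the epithelial sodium channel, had 899.8, 958 and 978 CPM in DMS454 libraries, against no read in any H1694 library, at least 47132-fold higher. These 3 genes were at the level of abundant mRNAs in DMS454 and at or near 0 in H1694. Further genes of this kind were KRT8, CEACAM5, ST14, GSTA1, GCG, GPX2, AKR1C1, AKR1C3, CLU, OR51E2, an olfactory-type receptor, and CALCA, at differences of 8.49 to 9.68. AMBP, KRT8 and CLU, the secreted chaperone clusterin (565 CPM in DMS454 and 0.368 CPM in H1694, medians), had a read in all 6 H1694 libraries.

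The 15 genes furthest down in DMS454 were led by APP, the amyloid precursor protein, with 0.5, 0.629 and 0.794 CPM in DMS454 libraries, against 1208, 1261 and 1351 CPM in H1694 libraries, a difference of -9.60 (SE 0.051, adjusted p = 2.3e-23). KIF26A, an unconventional kinesin, had 0, 0 and 0.132 CPM in DMS454 libraries, against 565, 569.6 and 582 CPM in H1694 libraries, a difference of -9.11 (SE 0.041, adjusted p = 4.3e-24). MAP4K4, a kinase of the cytoskeleton and stress signalling, had 0.0639, 0.191 and 0.469 CPM in DMS454 libraries, against 535, 574 and 592 CPM in H1694 libraries, a difference of -8.86 (SE 0.075, adjusted p = 2.4e-21). All 3 were close to 0 in every DMS454 library. Moesin (MSN), which ties actin to the membrane, had 0.256, 0.527 and 1.16 CPM in DMS454 libraries, against 409.6, 465 and 489 CPM in H1694 libraries, and EVL, an actin filament regulator, had 0.128, 0.453 and 0.789 CPM in DMS454 libraries, against 358, 416 and 477 CPM in H1694 libraries. SPARC, a matrix glycoprotein, had no read in any DMS454 library, against 225, 286 and 316 CPM in H1694 libraries, at least 12343-fold lower. The others were PPP1R17, a phosphatase inhibitor, MFAP4, a matrix protein, NREP, GALNT5, a glycosyltransferase, AUTS2, HR, NEUROD2, SOX11 and ADCYAP1R1, the receptor of the neuropeptide PACAP, at differences of -8.77 to -7.76.

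Because NEUROD1 and other basic helix-loop-helix factors bind E-boxes, whose core differs between factors, the 250 bases before the RefSeq start of each gene (GRCh38.p14) were searched for CAGCTG, which reads the same on both strands, and for CAGATG and CACCTG on either strand. No pair of these motifs can share a base. Of 11440 tested protein-coding genes with such a window, 12.9% held CAGCTG, 8.06% CAGATG and 16.2% CACCTG. Among genes higher in DMS454 the shares were 15.2%, 8.81% and 20.6% in that order, and among genes lower in DMS454 they were 11.9%, 8.95% and 14.05%. The shares of CAGCTG and CACCTG were thus larger among genes higher in DMS454, a difference that was not tested. A match is a run of letters, and binding was not measured. Of the 30 extreme genes, 15 in each direction, 21 had a window and 6 of them held CAGCTG or CAGATG, 3 in each direction. They are the promoters of the largest differences that carry CAGCTG or CAGATG, and these 2 cores are in capitals. CACCTG was not used to choose them. The window of GPX2, also among the 15 genes furthest up, held CACCTG on the other strand, as CAGGTG. ALDH1A1 (chr9:72953054-72953303, minus strand), AMBP (chr9:114078301-114078550, minus strand) and GCG (chr2:162152248-162152497, minus strand) were higher in DMS454. PPP1R17 (chr7:31686965-31687214, plus strand), SPARC (chr5:151686916-151687165, minus strand) and NEUROD2 (chr17:39607921-39608170, minus strand) were lower.
ALDH1A1: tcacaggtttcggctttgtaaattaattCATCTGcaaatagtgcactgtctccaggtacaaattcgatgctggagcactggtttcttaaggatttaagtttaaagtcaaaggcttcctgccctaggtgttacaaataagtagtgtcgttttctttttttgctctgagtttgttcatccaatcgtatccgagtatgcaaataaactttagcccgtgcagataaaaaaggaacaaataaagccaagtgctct
AMBP: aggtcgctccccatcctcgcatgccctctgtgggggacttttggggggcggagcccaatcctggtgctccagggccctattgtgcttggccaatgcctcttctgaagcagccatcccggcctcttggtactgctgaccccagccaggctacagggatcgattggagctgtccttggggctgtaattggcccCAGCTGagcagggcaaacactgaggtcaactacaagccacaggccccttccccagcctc
GCG: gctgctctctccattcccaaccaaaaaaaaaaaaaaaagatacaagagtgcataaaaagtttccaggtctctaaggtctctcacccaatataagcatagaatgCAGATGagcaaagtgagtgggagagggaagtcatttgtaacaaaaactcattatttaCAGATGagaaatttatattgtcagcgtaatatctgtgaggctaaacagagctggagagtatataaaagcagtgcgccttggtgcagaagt
PPP1R17: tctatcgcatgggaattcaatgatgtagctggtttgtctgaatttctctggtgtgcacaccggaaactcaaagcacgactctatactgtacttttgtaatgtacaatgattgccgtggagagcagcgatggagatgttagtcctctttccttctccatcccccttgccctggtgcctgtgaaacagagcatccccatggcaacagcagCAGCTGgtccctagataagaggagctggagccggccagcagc
SPARC: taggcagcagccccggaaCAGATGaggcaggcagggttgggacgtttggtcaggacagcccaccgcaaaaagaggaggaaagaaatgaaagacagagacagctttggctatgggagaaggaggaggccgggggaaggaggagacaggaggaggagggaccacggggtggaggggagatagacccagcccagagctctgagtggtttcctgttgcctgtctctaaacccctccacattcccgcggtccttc
NEUROD2: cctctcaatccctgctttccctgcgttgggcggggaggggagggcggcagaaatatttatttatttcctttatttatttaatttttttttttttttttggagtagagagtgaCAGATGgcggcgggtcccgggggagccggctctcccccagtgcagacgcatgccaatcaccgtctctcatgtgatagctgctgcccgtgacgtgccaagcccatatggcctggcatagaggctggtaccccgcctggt
CAGCTG stood in the window of AMBP, high in DMS454, and in that of PPP1R17, high in H1694, and CAGATG was likewise found on both sides, so neither of these 2 cores sorted these 6 promoters by line.

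Most epithelial genes tested were higher in DMS454, many of them at or near 0 in H1694. Of 27 epithelial junction and keratin genes tested (30 listed), 22 were higher and 4 lower in DMS454; the median difference was 5.99, or 6.09 with genes without a read in 1 line at their bound. A gene that passed the filter through 1 line alone was likely to be called in that direction. The counts of this and the other lists therefore describe them and are not a test. E-cadherin (CDH1), the adhesion molecule of epithelial junctions, had 444, 463 and 479.6 CPM in DMS454 libraries, against 0.157, 0.403 and 0.539 CPM in H1694 libraries, a difference of 8.41 (SE 0.063, adjusted p = 7.1e-22). Keratin 8 (KRT8), an intermediate filament of simple epithelium, had 928, 959 and 1055 CPM in DMS454 libraries, against 0.0719, 0.188 and 0.298 CPM in H1694 libraries, a difference of 9.68 (SE 0.039, adjusted p = 1.5e-24). The membrane protease matriptase (ST14) had 599, 617 and 655 CPM in DMS454 libraries, against 0, 0.0157 and 0.0992 CPM in H1694 libraries, and its inhibitor SPINT2 had 392, 430.1 and 440.5 CPM in DMS454 libraries, against 0.694, 1.16 and 1.37 CPM in H1694 libraries. Claudin 3 (CLDN3), a tight junction protein, had 165, 184 and 197 CPM in DMS454 libraries, against 0, 0.0248 and 0.0719 CPM in H1694 libraries. The libraries of the lines did not overlap for any of the 5. The 4 lower members were KRT5, KRT17, KRT80 and CD9; KRT5, a basal cell keratin, had no read in any DMS454 library, against 8.59, 9.52 and 10.6 CPM in H1694 libraries.

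Regulators of epithelial genes differed as well, in both directions. ZEB1, a repressor of CDH1, had 2.36, 3.04 and 3.52 CPM in DMS454 libraries, against 58.6, 64.98 and 70.7 CPM in H1694 libraries, a difference of -4.07 (SE 0.072, adjusted p = 1.5e-17). ZEB2, its paralog, had 0.375, 0.58 and 0.782 CPM in DMS454 libraries, against 48.2, 51.4 and 56.6 CPM in H1694 libraries, a difference of -5.06 (SE 0.066, adjusted p = 3.3e-19). The epithelial splicing regulators ESRP1 (104 CPM in DMS454 and 0.59 CPM in H1694, medians), ESRP2 (135 CPM in DMS454 and 0.326 CPM in H1694) and RBM47 (129.5 CPM in DMS454 and 0.109 CPM in H1694) were higher in DMS454. QKI (0.194 CPM in DMS454 and 81.3 CPM in H1694), linked to mesenchymal splicing, and the neuronal splicing factor RBFOX3 (0 CPM in DMS454 and 80.9 CPM in H1694) were lower. Of 30 splicing regulators tested (32 listed), 6 were higher and 12 lower in DMS454. Mesenchymal genes as a list did not lean as far: of 25 mesenchymal genes tested (33 listed), 8 were higher and 10 lower in DMS454 (median -0.40). CAV1, the coat protein of caveolae, and S100A6, a calcium-binding protein, were higher in DMS454 (4.18 and 7.02), SPARC lower.

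**Figure D3:**
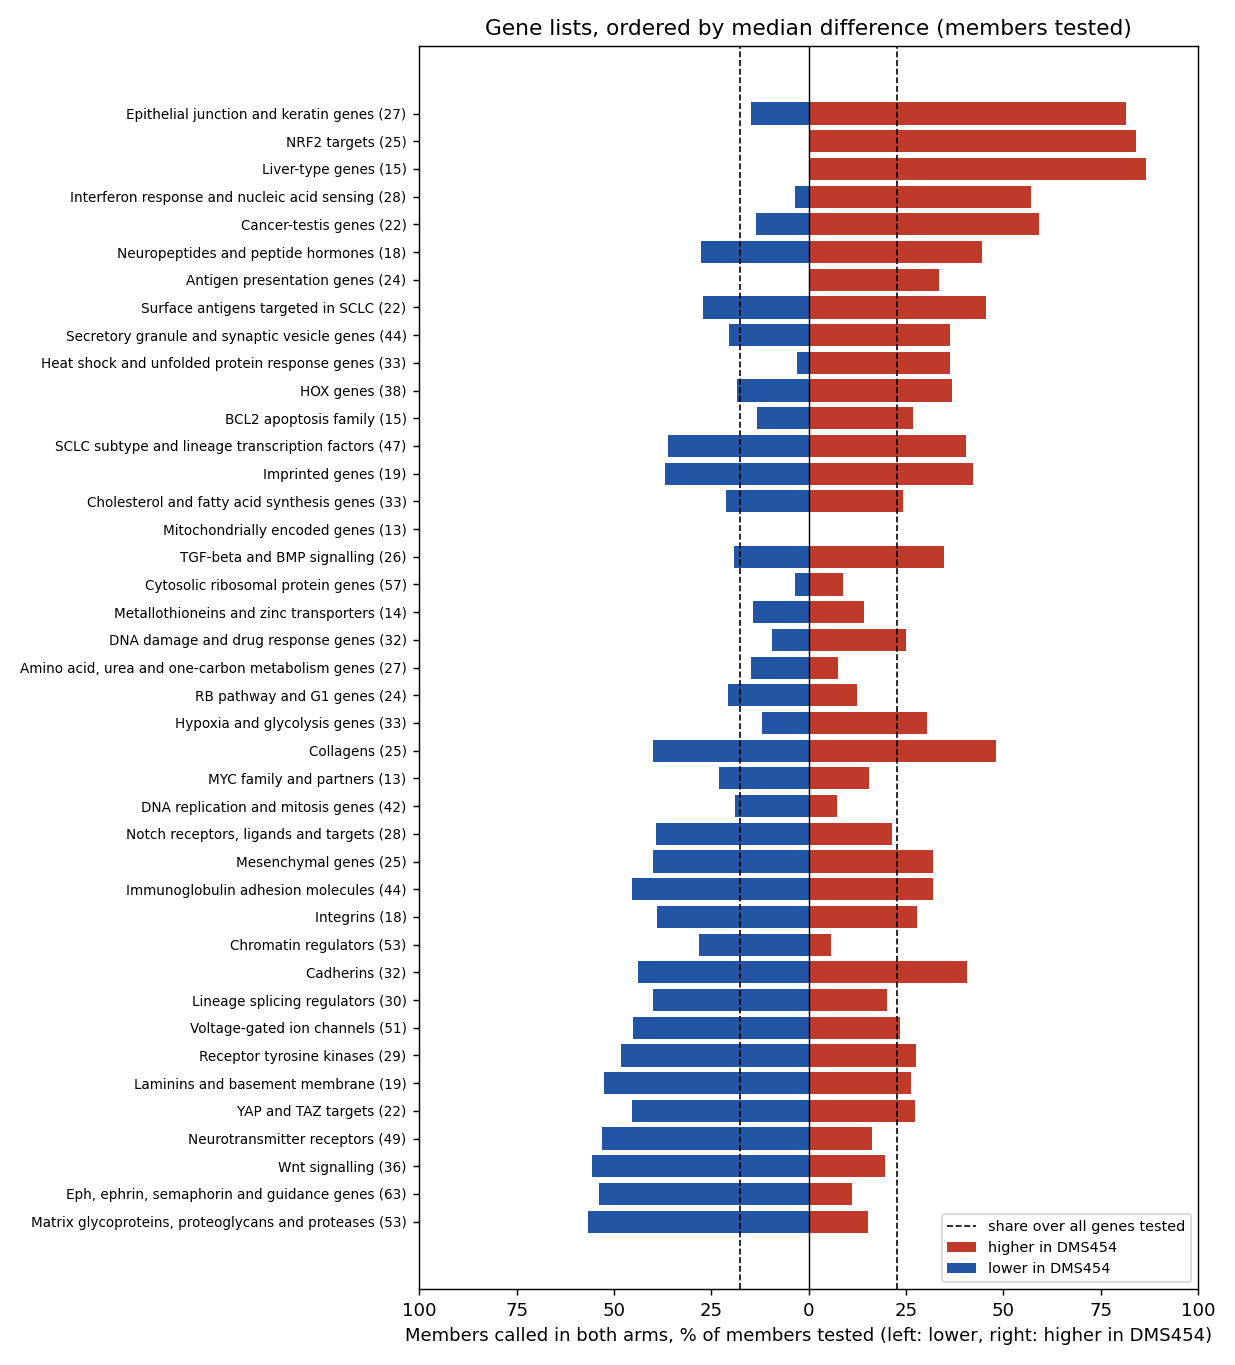
Share of tested members called in both arms, for the gene lists with at least 13 members tested, in percent. Bars to the right are members higher in DMS454 and bars to the left members lower in DMS454, dashed lines are the shares over all genes tested (22.7% and 17.7%), and lists run from the highest median difference at the top, the epithelial list, to the lowest at the bottom, the matrix glycoprotein list.

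The lines differed in the peptide hormones they made. Of 18 neuropeptides and peptide hormones tested (45 listed), 8 were higher and 5 lower in DMS454. Proglucagon (GCG), the precursor of glucagon and GLP-1, had 399, 693 and 813 CPM in DMS454 libraries, against 0, 0 and 0.0508 CPM in H1694 libraries, a difference of 9.22 (SE 0.14, adjusted p = 4.7e-16). Its highest value came from the third DMS454 CRISPR library, beside 420 and 399 CPM in the others of that group. CALCA, the gene of calcitonin and the peptide CGRP, had 327, 363 and 387 CPM in DMS454 libraries, against no read in any H1694 library, at least 17877-fold higher. Gastrin-releasing peptide (GRP), a growth factor of this cancer, had 119, 172 and 205 CPM in DMS454 libraries, against 0.0496, 0.212 and 0.406 CPM in H1694 libraries. These were high in every DMS454 library and at or near 0 in H1694. Neurotensin (NTS) had 67.6, 89.2 and 92.4 CPM in DMS454 libraries, against no read in any H1694 library, and neuromedin U (NMU) was the 1 of the 5 largest that was lower, with 0.132, 0.72 and 0.937 CPM in DMS454 libraries, against 29.3, 31.8 and 34.1 CPM in H1694 libraries.

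The machinery of granules and vesicles held genes of both directions. Of 44 granule and vesicle genes tested (46 listed), 16 were higher and 9 lower in DMS454 (median 0.67). The higher members of largest difference belonged to amine handling and granule cargo: DDC, which makes dopamine and serotonin from their precursors, had 814, 905 and 987 CPM in DMS454 libraries, against 1.47, 2.56 and 3.65 CPM in H1694 libraries, a difference of 8.02 (SE 0.067, adjusted p = 2.3e-21). SLC18A2, the vesicular monoamine transporter, had 45.3, 91.5 and 146 CPM in DMS454 libraries, against 0.0346, 0.0855 and 0.22 CPM in H1694 libraries, a difference of 6.22 (SE 0.056, adjusted p = 4.7e-21). SCGN, a calcium sensor of endocrine cells, RAB3B, a vesicle GTPase, and SCG5, a chaperone of a prohormone convertase, were higher by 5.56, 4.72 and 5.37. CHGA, CHGB, SCG3, PCSK1N, SYT1, SNAP25 and others of the list were not called in both arms.

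Most genes best known from liver and gut secretion were higher in DMS454. Of 15 liver-type genes tested (19 listed), 13 were higher and 0 lower in DMS454, and ALB and AHSG were not called. Of the 19 listed, 10 had no read in any H1694 library. Those tested among them passed the filter through DMS454 alone and could not be called lower. The counts therefore describe the list and are not a test of it. The median difference was 3.05, or 6.70 with genes without a read in H1694 at their bound. HNF4A, a nuclear receptor that drives liver and gut genes, had 102, 111 and 125 CPM in DMS454 libraries, against no read in any H1694 library, at least 5642-fold higher. The protease inhibitor SERPINA1 had 248, 294 and 338 CPM in DMS454 libraries, against 1.15, 1.90 and 2.42 CPM in H1694 libraries, and transthyretin (TTR), a thyroid hormone carrier, had 76.3, 82.3 and 90.9 CPM in DMS454 libraries, against no read in any H1694 library. None of these overlapped between the lines.

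Targets of NRF2, the transcription factor of the oxidative stress response, were nearly all higher in DMS454. Of 25 NRF2 targets tested (25 listed), 21 were higher and 0 lower in DMS454, with a median difference of 3.88, and GCLM, HMOX1, ALDH3A1 and FTH1 were not called. The glutathione peroxidase GPX2 had 601, 653 and 686 CPM in DMS454 libraries, against 0, 0.119 and 0.199 CPM in H1694 libraries, a difference of 9.19 (SE 0.047, adjusted p = 1.5e-23). AKR1C1, an aldo-keto reductase that acts on carbonyls and steroids, had median levels of 617 CPM in DMS454 and 0 CPM in H1694. Its relatives AKR1C2 (244 CPM in DMS454 and 0 CPM in H1694) and AKR1C3 (457 CPM in DMS454 and 0 CPM in H1694) had the same pattern. Their transcripts are close copies, so reads may be split among them, but all 3 were at or near 0 in H1694. AKR1B10, a related reductase, had 332, 425 and 443 CPM in DMS454 libraries, against 2.73, 5.22 and 7.93 CPM in H1694 libraries, a difference of 6.08 (SE 0.052, adjusted p = 2.5e-21).

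The promoters of this list were searched for TGACNNNGC on either strand, the core of the element that NRF2 binds, a search chosen after the values were seen. Of 11440 windows of 250 bases 11.9% held it, against 12.2% among genes higher and 10.1% among genes lower in DMS454. Only 17 of the 25 tested members had a window, under the 80% needed to compare shares, so no share is given for the list. The 3 with a match and the largest differences are shown, with the match in capitals: GPX2 (chr14:64942746-64942995, minus strand), ME1 (chr6:83431052-83431301, minus strand) and TXNRD1 (chr12:104215529-104215778, plus strand). The windows of GCLM and PGD, at the smaller differences of 1.08 and 1.43, held a match too and are not shown. ME1, malic enzyme, makes NADPH and had median levels of 98.1 CPM in DMS454 and 3.64 CPM in H1694. TXNRD1, thioredoxin reductase, had 2333 CPM in DMS454 and 398 CPM in H1694.
GPX2: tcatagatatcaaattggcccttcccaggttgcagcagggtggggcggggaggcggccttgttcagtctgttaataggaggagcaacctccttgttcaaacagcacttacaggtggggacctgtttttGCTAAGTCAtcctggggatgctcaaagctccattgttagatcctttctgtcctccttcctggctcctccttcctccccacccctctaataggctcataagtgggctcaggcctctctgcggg
ME1: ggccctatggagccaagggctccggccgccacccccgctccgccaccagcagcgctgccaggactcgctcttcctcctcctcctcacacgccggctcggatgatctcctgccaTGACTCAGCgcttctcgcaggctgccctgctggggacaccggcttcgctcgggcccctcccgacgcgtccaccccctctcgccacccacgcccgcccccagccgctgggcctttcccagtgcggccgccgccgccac
TXNRD1: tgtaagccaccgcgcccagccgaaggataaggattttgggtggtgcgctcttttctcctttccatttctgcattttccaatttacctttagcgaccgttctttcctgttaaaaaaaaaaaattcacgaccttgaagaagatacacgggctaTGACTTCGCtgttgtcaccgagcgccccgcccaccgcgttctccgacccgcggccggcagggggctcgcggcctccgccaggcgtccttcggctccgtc
The match began 122, 137 and 99 bases before the start of GPX2, ME1 and TXNRD1 in that order. The windows of AKR1C1, AKR1C2 and AKR1C3 held none of these letters, which says nothing on elements outside them.

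Single drug efflux and detoxification genes differed widely, while most genes of their list were not called. Of 32 DNA damage and drug response genes tested (36 listed), 8 (25%) were higher and 3 (9.4%) lower in DMS454, and 21 were not called. Over all genes tested the shares were 22.7% and 17.7%. The median difference of the list was 0.09, and the genes named here are called members with the largest differences. ABCB1, the efflux pump P-glycoprotein, had 153, 183 and 229.8 CPM in DMS454 libraries, against no read in any H1694 library, at least 9498-fold higher. ABCC2 had 84.8, 99.2 and 103 CPM in DMS454 libraries, against 0.397, 0.465 and 0.844 CPM in H1694 libraries, and ABCC3 24.2, 41.7 and 50.4 CPM in DMS454 libraries, against 0.0315, 0.153 and 0.207 CPM in H1694 libraries; both are efflux pumps of conjugated compounds. GSTP1, a glutathione transferase, had 129, 240.2 and 285 CPM in DMS454 libraries, against 5.35, 5.79 and 6.55 CPM in H1694 libraries, a difference of 4.92 (SE 0.089, adjusted p = 3.2e-17). All of these pumps were below 1 CPM in every H1694 library. Drug response itself was not measured.

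More genes of axon guidance were lower than higher in DMS454. Of 63 guidance genes tested (68 listed), 7 were higher and 34 lower in DMS454, with a median difference of -1.66. SEMA3C, a secreted guidance cue, had 2.21, 2.53 and 4.89 CPM in DMS454 libraries, against 327, 369 and 412 CPM in H1694 libraries, a difference of -6.59 (SE 0.12, adjusted p = 9.2e-15). EFNB3, an ephrin ligand, had 0.132, 0.227 and 0.313 CPM in DMS454 libraries, against 104, 109 and 120.3 CPM in H1694 libraries, a difference of -6.50 (SE 0.055, adjusted p = 2.4e-21). The netrin receptors UNC5B (0.116 CPM in DMS454 and 117 CPM in H1694, medians) and DCC (0.0834 CPM in DMS454 and 49.1 CPM in H1694) and the semaphorin receptor NRP2 (0.512 CPM in DMS454 and 77.5 CPM in H1694) were lower as well. Each of these was at or below 5 CPM in every DMS454 library.

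Among neuronal receptors and channels more genes were lower than higher in DMS454. Of 49 neurotransmitter receptors tested (68 listed), 8 were higher and 26 lower in DMS454 (median -1.35). The kainate receptor subunits GRIK5 (0.979 CPM in DMS454 and 166 CPM in H1694, medians) and GRIK3 (0.374 CPM in DMS454 and 102 CPM in H1694) were lower, as were GABBR2 and GABRB2, subunits of GABA receptors (-5.85 and -5.03). HTR1D, a serotonin receptor, was higher, with 169.9, 189.6 and 225 CPM in DMS454 libraries, against 0.0992, 0.325 and 0.575 CPM in H1694 libraries. Of 51 voltage-gated channels tested (56 listed), 12 were higher and 23 lower in DMS454 (median -0.90). CACNA1H, a low-voltage calcium channel, was higher, with 300.1, 316 and 333 CPM in DMS454 libraries, against 0, 0.0676 and 0.173 CPM in H1694 libraries. CACNA2D2, an auxiliary subunit of calcium channels, was lower, with 0.496, 1.05 and 1.25 CPM in DMS454 libraries, against 100.1, 109.9 and 121 CPM in H1694 libraries. Each of these lists therefore held a member far up in DMS454 amid a lower majority of its called members.

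Adhesion molecules held many genes of both directions. L1CAM, which guides neurites, had 1.37, 1.51 and 1.79 CPM in DMS454 libraries, against 303, 334 and 357 CPM in H1694 libraries, a difference of -7.02 (SE 0.046, adjusted p = 1.7e-22). CNTN2, a contactin of axons, had no read in any DMS454 library, against 150.4, 199 and 259 CPM in H1694 libraries, at least 9171-fold lower, and CHL1 and IGSF21 had no read in DMS454 either. Of 44 immunoglobulin adhesion molecules tested (52 listed), 14 were higher and 20 lower in DMS454 (median -0.41). Of 32 cadherins tested (40 listed), 13 were higher and 14 lower in DMS454 (median -0.64). Beside CDH1, the desmosomal DSC2 was higher (61.6 CPM in DMS454 and 0 CPM in H1694, medians), while CDH5, best known from endothelium (0.0165 CPM in DMS454 and 141 CPM in H1694), PCDH9 (4.25 CPM in DMS454 and 429.9 CPM in H1694) and FAT1 (0.994 CPM in DMS454 and 77.98 CPM in H1694) were lower. The other blood and endothelial markers examined averaged below 1 CPM in H1694.

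More matrix genes were lower than higher in DMS454, while collagens were divided. Of 53 matrix glycoproteins, proteoglycans and proteases tested (64 listed), 8 were higher and 30 lower in DMS454, with the lowest median of the lists of 10 or more members, -2.41. Reelin (RELN), a guidance glycoprotein, had 0.198, 0.45 and 0.704 CPM in DMS454 libraries, against 181, 232 and 305 CPM in H1694 libraries, a difference of -7.35 (SE 0.10, adjusted p = 6.3e-19). The gelatinase MMP2 had no read in any DMS454 library, against 61.3, 78.00 and 100.3 CPM in H1694 libraries, at least 3603-fold lower. The heparan sulfate proteoglycan SDC4 went the other way, with 315, 356 and 399 CPM in DMS454 libraries, against 3.32, 3.83 and 4.81 CPM in H1694 libraries. Of 19 laminin and basement membrane genes tested (20 listed), 5 were higher and 10 lower in DMS454: LAMA1 (285 CPM in DMS454 and 0 CPM in H1694, medians) and LAMB3 (231 CPM in DMS454 and 1.22 CPM in H1694) were higher, LAMA3 (0.403 CPM in DMS454 and 27.7 CPM in H1694) and LAMA4 (0.737 CPM in DMS454 and 27.2 CPM in H1694) lower. Of 25 collagens tested (36 listed), 12 were higher and 10 lower in DMS454. COL22A1 and COL21A1 were higher by 6.93 and 6.67 and COL4A2, a basement membrane chain, by 5.81, while COL9A3 and COL27A1 were lower, at -5.96 and -5.93. Of 18 integrins tested (25 listed), 5 were higher and 7 lower in DMS454: ITGA7 (5.33 CPM in DMS454 and 109 CPM in H1694), a laminin receptor chain, was lower and ITGB5 (79.9 CPM in DMS454 and 5.50 CPM in H1694), a vitronectin receptor chain, higher.

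Signalling receptors and pathways differed in both directions. Wnt genes were mainly lower: of 36 Wnt genes tested (50 listed), 7 were higher and 20 lower in DMS454 (median -1.38). The feedback inhibitors NKD1 (0.0165 CPM in DMS454 and 28.4 CPM in H1694, medians), NKD2 (0.68 CPM in DMS454 and 45.2 CPM in H1694) and NOTUM (0.227 CPM in DMS454 and 24.2 CPM in H1694) and the receptors FZD7 (2.20 CPM in DMS454 and 55.8 CPM in H1694) and FZD8 (0.0428 CPM in DMS454 and 26.9 CPM in H1694) led them. Of 28 Notch pathway genes tested (29 listed), 6 were higher and 11 lower in DMS454. The ligand DLL4 had 309, 377 and 402 CPM in DMS454 libraries, against 0.647, 0.869 and 1.28 CPM in H1694 libraries, a difference of 7.60 (SE 0.083, adjusted p = 4.5e-20). The receptor NOTCH1 had 3.10, 4.20 and 5.19 CPM in DMS454 libraries, against 66.8, 86.6 and 109 CPM in H1694 libraries, a difference of -4.08 (SE 0.087, adjusted p = 1.6e-16). HEYL (8.95 CPM in DMS454 and 128 CPM in H1694) and HES2 (0.071 CPM in DMS454 and 16.5 CPM in H1694), transcription factors of the HES and HEY family, and DLK1, an imprinted Notch inhibitor with no read in DMS454 (0 CPM in DMS454 and 61.3 CPM in H1694), were lower with it. Notch ligands DLL3 and DLL4 were thus higher in DMS454, and the receptor NOTCH1 and HEYL lower.

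Receptor tyrosine kinases divided too: of 29 receptor tyrosine kinases tested (39 listed), 8 were higher and 14 lower in DMS454. RET, the receptor of GDNF family ligands, had 99.5, 121 and 146 CPM in DMS454 libraries, against 0, 0.0563 and 0.152 CPM in H1694 libraries, a difference of 6.83 (SE 0.05, adjusted p = 4.8e-22). ERBB3, the neuregulin receptor, had 286, 310.0 and 369 CPM in DMS454 libraries, against 2.16, 2.70 and 3.52 CPM in H1694 libraries, a difference of 6.44 (SE 0.071, adjusted p = 4.6e-20). EGFR had 0, 0.0331 and 0.178 CPM in DMS454 libraries, against 25.1, 26.7 and 32.8 CPM in H1694 libraries, a difference of -4.77 (SE 0.067, adjusted p = 8.6e-19). FGFR2 (0.0263 CPM in DMS454 and 36.1 CPM in H1694, medians) and ROR1 (0.394 CPM in DMS454 and 27.3 CPM in H1694) were lower in DMS454 with EGFR. Of 22 genes tested on the list of YAP and TAZ targets (26 listed), 6 were higher and 10 lower in DMS454. YAP1, read in DMS454 alone, is itself on this list and among the 6. NT5E (70.9 CPM in DMS454 and 0 CPM in H1694) was higher and AMOTL1 (1.58 CPM in DMS454 and 90.7 CPM in H1694) lower. Of 26 TGF-beta and BMP genes tested (33 listed), 9 were higher and 5 lower in DMS454; CHRD, a BMP antagonist, was higher (230.5 CPM in DMS454 and 16.3 CPM in H1694) and PMEPA1, a feedback inhibitor, had no read in DMS454 (0 CPM in DMS454 and 16.7 CPM in H1694).

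Surface antigens that are targets of antibodies or cell therapies in this cancer were not shared evenly. Of 22 surface antigens tested (24 listed), 10 were higher and 6 lower in DMS454. CEACAM5, carcinoembryonic antigen, had 596, 740.5 and 902 CPM in DMS454 libraries, against 0, 0 and 0.0359 CPM in H1694 libraries, a difference of 9.52 (SE 0.041, adjusted p = 2.8e-24). SSTR2, the somatostatin receptor used in imaging, had 0.263, 0.305 and 0.383 CPM in DMS454 libraries, against 76.9, 80.9 and 84.3 CPM in H1694 libraries, a difference of -5.95 (SE 0.05, adjusted p = 2.3e-21). DLL3 was higher in DMS454, as given above. DMS454 therefore carried more CEACAM5, DLL3 and ERBB3 RNA and H1694 more SSTR2, L1CAM, NCAM1 and ROR1 RNA; protein was not measured. CEACAM family members share sequence, so some reads may come from relatives.

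Some antigen presentation genes and most interferon response genes tested were higher in DMS454. Of 24 antigen presentation genes tested (30 listed), 8 were higher and 0 lower in DMS454 (median 0.89). HLA-E, which engages natural killer cells, had 104, 116 and 126 CPM in DMS454 libraries, against 0.0315, 0.0705 and 0.198 CPM in H1694 libraries, a difference of 6.74 (SE 0.054, adjusted p = 1.3e-21). HLA-C (281 CPM in DMS454 and 10.1 CPM in H1694, medians) and HLA-B (158 CPM in DMS454 and 9.47 CPM in H1694) were higher as well, and these genes are close copies whose reads may be split. Of 28 interferon and nucleic acid sensing genes tested (38 listed), 16 were higher and 1 lower in DMS454 (median 1.49). The RNA sensor IFIH1 had 53.5, 60.2 and 62.9 CPM in DMS454 libraries, against no read in any H1694 library, at least 2932-fold higher. MX1 (19.8 CPM in DMS454 and 0 CPM in H1694), MX2 (58.5 CPM in DMS454 and 0 CPM in H1694) and OAS3 (23.1 CPM in DMS454 and 0 CPM in H1694), antiviral effectors, and the regulator IRF7 (32.96 CPM in DMS454 and 0.0855 CPM in H1694) did not exceed 0.189 CPM in an H1694 library.

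Cancer-testis genes, normally confined to germ cells, were partly on in each line. Of 22 cancer-testis genes tested (40 listed), 13 were higher and 3 lower in DMS454 (median 1.36, or 1.49 with bounds). MAGEA4 had 0.128, 0.292 and 0.579 CPM in DMS454 libraries, against 93.1, 101 and 110.3 CPM in H1694 libraries and MAGEA10 4.43, 5.35 and 6.26 CPM in DMS454 libraries, against 154, 159.6 and 161 CPM in H1694 libraries, both lower in DMS454. SSX1 (69.2 CPM in DMS454 and 0.0248 CPM in H1694, medians), CTAG2 (32.6 CPM in DMS454 and 0 CPM in H1694) and MAGEA1 (18.2 CPM in DMS454 and 0.41 CPM in H1694) were higher. These families hold near-identical copies, so the split of reads among relatives is uncertain. Of 38 HOX genes tested (39 listed), 14 were higher and 7 lower in DMS454: HOXB5 (3.93), HOXB6 (5.20), HOXD9 (4.98) and HOXD10 (3.55) were higher and HOXA13 (-3.55) lower. Of 19 imprinted genes tested (25 listed), 8 were higher and 7 lower in DMS454: MEST (201 CPM in DMS454 and 0.171 CPM in H1694), PEG10 (252 CPM in DMS454 and 20.5 CPM in H1694) and H19 (11.5 CPM in DMS454 and 0 CPM in H1694) were higher, and DLK1 and CDKN1C lower.

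Metabolic genes differed in single steps rather than as whole lists. Of 33 cholesterol and fatty acid synthesis genes tested (33 listed), 8 were higher and 7 lower in DMS454. FASN, the fatty acid synthase, had 223, 237 and 279 CPM in DMS454 libraries, against 785, 869.9 and 957 CPM in H1694 libraries, a difference of -1.84 (SE 0.041, adjusted p = 2.4e-16). FADS2, a fatty acid desaturase, was lower (-3.11) and SC5D, a late enzyme of cholesterol synthesis, higher (2.22). Of 33 hypoxia and glycolysis genes tested (35 listed), 10 were higher and 4 lower in DMS454. The neuronal enolase ENO2 had 9.70, 13.5 and 19.7 CPM in DMS454 libraries, against 575, 589.6 and 608 CPM in H1694 libraries, a difference of -5.34 (SE 0.039, adjusted p = 5.3e-22). ENO2, a classical serum marker of this cancer, was thus lower in DMS454, as was PFKP (-3.25), a phosphofructokinase, while BNIP3 (2.90), a mitophagy receptor, was higher. Of 27 amino acid, urea and one-carbon genes tested (33 listed), 2 were higher and 4 lower in DMS454: GLDC, of glycine cleavage, was higher (24.1 CPM in DMS454 and 1.16 CPM in H1694, medians) and BCAT1, of branched-chain amino acid breakdown, lower (4.44 CPM in DMS454 and 141 CPM in H1694). Of 33 heat shock and unfolded protein response genes tested (33 listed), 12 were higher and 1 lower in DMS454 (median 0.55), led by CHORDC1 (2.88), a cochaperone, and XBP1 (2.78), a factor of the unfolded protein response.

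Most genes that dividing cells share were not called. Of 42 replication and mitosis genes tested (42 listed), 3 were higher and 8 lower in DMS454 (median -0.25); AURKA, a mitotic kinase, was higher (183 CPM in DMS454 and 71.03 CPM in H1694, medians) and AURKB, its relative, lower (30.3 CPM in DMS454 and 93.1 CPM in H1694). Of 57 cytosolic ribosomal protein genes tested (57 listed), 5 were higher and 2 lower in DMS454 (median 0.17); RPL39L, a tissue-restricted copy, had 20.6, 22.2 and 25.99 CPM in DMS454 libraries, against no read in any H1694 library, while RPL10 (1.17) lost its call under other scalings. Ribosomal proteins have many pseudogene copies, which can take or give reads. None of the 13 mitochondrially encoded genes tested was called in either direction. MT-CO1 had 6962, 10030.5 and 12139.9 CPM in DMS454 libraries, against 7752, 11310.1 and 15712 CPM in H1694 libraries, and the lines overlapped. Chromatin regulators leaned lower: of 53 chromatin regulators tested (54 listed), 3 were higher and 15 lower in DMS454 (median -0.52). The lower ones of largest difference included 3 subunits of SWI/SNF complexes. These were SMARCD3 (1.26 CPM in DMS454 and 61.9 CPM in H1694), DPF1 (11.7 CPM in DMS454 and 120.3 CPM in H1694) and DPF3 (0.636 CPM in DMS454 and 32.9 CPM in H1694). The others were the remodeller CHD5 (0.719 CPM in DMS454 and 111 CPM in H1694) and the DNA methyltransferase DNMT3A (29.5 CPM in DMS454 and 186 CPM in H1694).

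The other lists were short. Of 15 BCL2 family genes tested (16 listed), 4 were higher and 2 lower in DMS454; BCL2L1, the survival factor BCL-xL, had 150.4, 152 and 163 CPM in DMS454 libraries, against 59.9, 64.99 and 68.2 CPM in H1694 libraries, a difference of 1.25, while BIK and BMF, which promote cell death, were higher by 3.57 and 3.25 and BOK lower, at -2.98. Of 14 metallothionein and zinc transporter genes tested (19 listed), 2 were higher and 2 lower in DMS454, with MT1F lower (0.854 CPM in DMS454 and 13.04 CPM in H1694, medians). Of 9 tuft cell genes tested (20 listed), 2 were higher and 6 lower in DMS454; AVIL, an actin regulator, was higher (47.2 CPM in DMS454 and 1.44 CPM in H1694) and SH2D6 lower (0.26 CPM in DMS454 and 6.78 CPM in H1694), with POU2F3 near 0 in both lines. Of 6 alveolar and airway genes tested (18 listed), 2 were higher and 3 lower in DMS454, with FOXJ1 higher (45.95 CPM in DMS454 and 0.113 CPM in H1694). Of 5 fibroblast markers tested (11 listed), 1 was higher and 3 lower in DMS454, with COL1A2 lower (2.30 CPM in DMS454 and 50.03 CPM in H1694) and FAP higher (11.2 CPM in DMS454 and 1.06 CPM in H1694). Of 2 blood and endothelial markers tested (12 listed), CD14 was higher and CDH5 lower.

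The differences were unevenly spread over the chromosomes, a property the rule did not use. Over chromosomes 1 to 22 and X, 3046 were higher and 2790 lower in DMS454 among 14201 tested, with a median difference of 0.05. The balance of these totals turned with the scaling, to 2798 higher and 3080 lower with TMM, 2896 higher and 2966 lower with median-ratio scaling, 3211 higher and 3330 lower with edgeR and 3213 higher and 3340 lower with limma-voom. On chromosome 14, 31 were higher and 174 lower in DMS454 among 480 tested, with a median difference of -0.76. On chromosome 2, 136 were higher and 296 lower in DMS454 among 976 tested, with a median difference of -0.50. Chromosome 11 had the opposite lean: 314 were higher and 102 lower in DMS454 among 812 tested, with a median difference of 0.77. On chromosome 18, 78 were higher and 19 lower in DMS454 among 215 tested, with a median difference of 0.76, and on chromosome 20, 132 were higher and 51 lower in DMS454 among 378 tested, with a median difference of 0.75. Neighbouring genes share position and may share copy number, which was not analysed here, so its part was not tested and the genes are not independent.

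**Figure D4:**
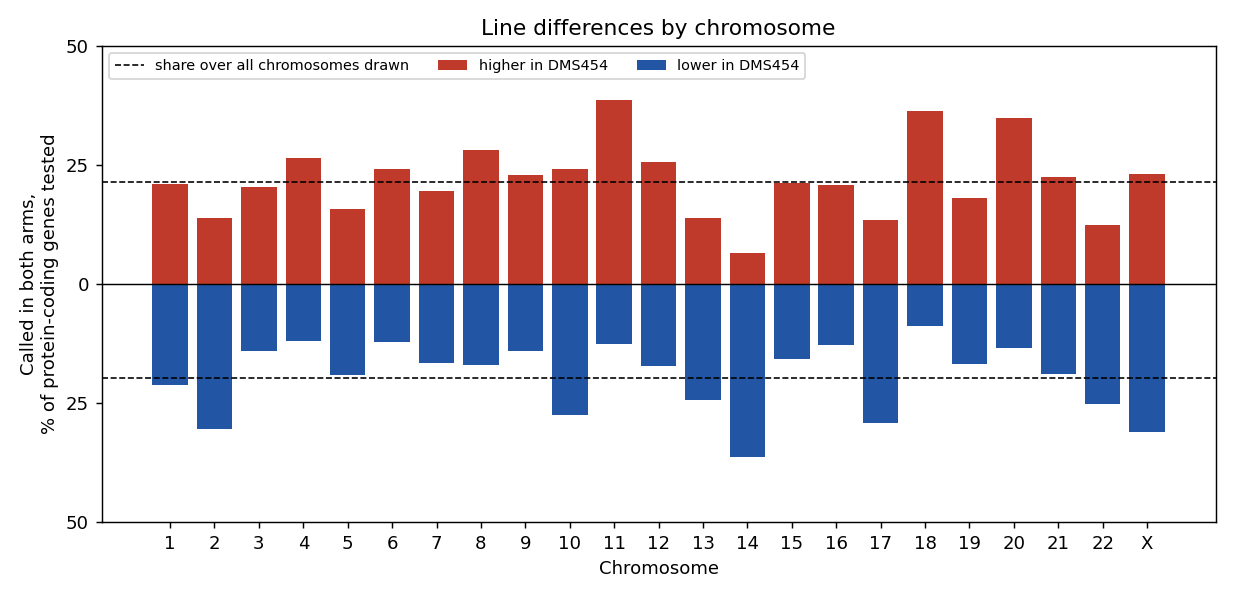
Share of tested protein-coding genes called in both arms on each chromosome, in percent; bars above 0 are genes higher in DMS454, bars below 0 genes lower in DMS454, and dashed lines the shares over all chromosomes drawn. Chromosomes 11, 18 and 20 have the tallest bars above 0 and chromosome 14 the deepest bar below.

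Some stretches of neighbouring protein-coding genes were called in 1 direction without a break; these were picked for their length after their values were seen (GRCh38, GENCODE 29). The longest held 19 genes from ZW10 to CEP164 (chr11:113733187-117413268), all higher in DMS454, at differences of 1.33 to 4.15. The next held 13 genes from OAT to FANK1 (chr10:124397303-126009592), higher by 1.44 to 3.64. YAP1 lay in a run of 11 genes from TRPC6 to CASP4 (chr11:101451564-104969436), higher by 2.42 to 4.19. Among lower genes the longest run held 10 genes from AURKB to NTN1 (chr17:8204733-9244000), at -4.42 to -1.41.

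The size of the line difference seldom depended on the arm. The difference between the arms' line differences was called for 232 genes (1.25%), 135 of them (0.729%) with the larger value in the CRISPR arm and 97 (0.524%) with the larger value in the control arm, counting sign. Of these, 129 were called in both arms in 1 direction all the same, and 103 were not among the genes called in both arms. The balance was not stable: the control arm had the larger value more often with median-ratio scaling (105 genes larger in the CRISPR arm, 135 in the control arm), DESeq2 (210 and 241) and limma-voom (277 and 291). Without the third DMS454 CRISPR library 325 genes were called, 165 larger in the CRISPR arm and 160 in the control arm. Among the named genes 10 were affected, and all kept their direction in both arms; SLC18A2, for example, was higher by 7.05 between the libraries labelled CRISPR and 5.40 between those labelled control, and STARD4, a sterol carrier, was lower in both, at -2.60 between the libraries labelled CRISPR and -1.04 between those labelled control.

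**Figure D5:**
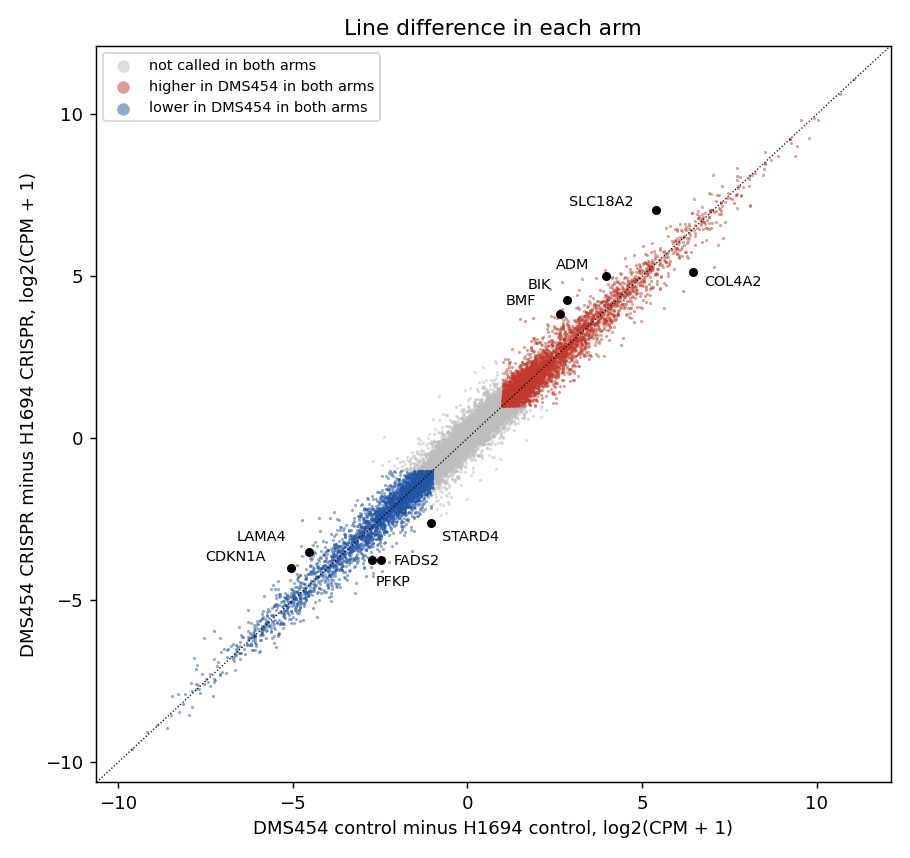
Line difference on the log2(CPM + 1) scale between the CRISPR libraries (vertical axis) and between the control libraries (horizontal axis) for the genes tested (sex-informative genes left out), coloured as in the plot of mean levels. Points lie along the dotted line of equal differences, and the 10 named genes whose difference depended on the arm are in black, from STARD4 below the line to SLC18A2 above it.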

How the data were processed

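Total RNA of DMS454 and H1694 cells was sequenced with a stranded library kit after on-column DNase treatment, per the labels' protocols. Reads were trimmed with Trim Galore, aligned with STAR to hg38 and analysed with DESeq2, per the submitters' processing notes. The sources used here do not give versions, counter, annotation or strand setting. Each library's column holds a signal, that is counts divided by the authors' DESeq2 size factors, which were set separately for each line. The authors' column of means is the same kind of signal, and the deposited log2 fold changes, their standard errors, the Wald score and the p-values of the authors were not used here. Whole reads were recovered from 100% of values within 0.01 in all 12 libraries, and were scaled to CPM per library, which removes the separate size factors.

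Groups came from the sample titles. Genes with a mean of at least 1 CPM in 1 of 4 groups were fitted with limma 3.58.1 (trend, robust) in R 4.3.3 on log2(CPM + 1), as 4 group means over 12 libraries, two-sided, with Benjamini-Hochberg adjustment over all genes tested. Differences are DMS454 minus H1694 and understate the change of low genes. Alternatives used edgeR 4.0.16 and DESeq2 1.42.0 on the recovered reads, limma-voom, other scalings, pseudocounts, filters and floors, a replicate block, and leaving out each library. In simulated data the limma fit recovered 100 of 100 genes changed 4-fold. These were drawn from genes of at least 5 CPM, with a fixed spread and few other line differences. The simulation therefore does not show recovery among lower genes or at the spread of these libraries. Intervals and floors of 3 reads cover counting error only. Names and coordinates came from GENCODE 29 (GRCh38), which matched 96.5% of identifiers, promoters from RefSeq (GRCh38.p14).

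The named genes are HEPACAM2, 15 subtype and tumour genes, the fixed cell type markers, the 15 largest differences in each direction among protein-coding genes of at least 10 CPM, and up to 5 called members of each of 46 lists with the largest difference and at least 5 CPM. ME1, TXNRD1, PGD and genes at run ends or named as not called were chosen after their values were seen. Some of these genes and 1 list are not reported here. The comparison, members and lists were chosen with earlier results of these data known.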

Additional observations from a re-analysis of the deposited data

Results flagged for a closer look

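For 10 named genes the size of the line difference depended on the arm, by the interaction term of the limma fit with Benjamini-Hochberg adjustment over all genes tested (232 genes, 1.25%). All 10 differed in the same direction in both arms, and the values below are differences on the log2(CPM + 1) scale, DMS454 minus H1694. The arms are named as labelled, and HEPACAM2 was higher in the libraries labelled CRISPR.

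In 5 genes higher in DMS454, the difference of SLC18A2, the vesicular monoamine transporter, was 7.05 between the libraries labelled CRISPR and 5.40 between those labelled control, a change of 1.65 (SE 0.11, adjusted p = 3.1e-07). That of BIK, which promotes cell death, was 4.28 between the libraries labelled CRISPR and 2.86 between those labelled control, a change of 1.42 (SE 0.17, adjusted p = 5.8e-05). That of BMF, of the same family, was 3.84 between the libraries labelled CRISPR and 2.66 between those labelled control, a change of 1.19 (SE 0.087, adjusted p = 6.3e-07). ADM, the vasodilator adrenomedullin, had differences of 5.01 between the libraries labelled CRISPR and 3.97 between those labelled control, a change of 1.03 (SE 0.21, adjusted p = 0.00318). COL4A2, a basement membrane collagen chain, was the 1 of these with the smaller difference in the CRISPR arm, at 5.14 between the libraries labelled CRISPR and 6.47 between those labelled control, a change of -1.34 (SE 0.19, adjusted p = 2.3e-04).

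In 5 genes lower in DMS454, the difference of STARD4, a sterol carrier, was -2.60 between the libraries labelled CRISPR and -1.04 between those labelled control, a change of -1.56 (SE 0.089, adjusted p = 4.6e-08). FADS2, a fatty acid desaturase, had -3.75 between the libraries labelled CRISPR and -2.48 between those labelled control, a change of -1.27 (SE 0.089, adjusted p = 3.9e-07). PFKP, a phosphofructokinase, had -3.76 between the libraries labelled CRISPR and -2.73 between those labelled control, a change of -1.03 (SE 0.22, adjusted p = 0.00502). CDKN1A, the inhibitor p21, had -4.02 between the libraries labelled CRISPR and -5.04 between those labelled control, a change of 1.02 (SE 0.18, adjusted p = 0.00142). LAMA4, a laminin chain, had -3.51 between the libraries labelled CRISPR and -4.54 between those labelled control, a change of 1.04 (SE 0.15, adjusted p = 3.0e-04). For CDKN1A and LAMA4 the lines were thus nearer to each other in the CRISPR arm, and for STARD4, FADS2 and PFKP further apart. No cause was tested.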

How the results depend on the processing

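The count of genes called in both arms, 7486 as reported (4202 higher, 3284 lower in DMS454), was 8989 with edgeR, 8975 with DESeq2 and 8991 with limma-voom on the recovered reads. It was 7486 with TMM scaling (3864 higher, 3622 lower), 7482 with median-ratio scaling, 8909 with a pseudocount of 0.1, 5988 with a mean of at least 5 CPM, 7485 without a filter and 7487 with overlap allowed. TMM scaling moved the median of all genes by -0.12 on the log2 scale and edgeR by -0.10, so differences near the floor of 1 depend on the scaling. By construction, the floor and the pseudocount moved the counts most. With no floor on the log2 difference, 14835 genes were called in both arms, 14605 over all libraries, 16145 in the control arm and 15957 in the CRISPR arm, and 11702 protein-coding genes in the counts per chromosome. With a floor of 2 these were 3358, 3728, 3706, 3801 and 2810, and 462 list members were called. With a pseudocount of 5, 4850 genes were called in both arms, 5372 over all libraries, 5336 in the control arm and 5475 in the CRISPR arm.

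The small counts moved most. Genes whose difference depended on the arm numbered 451 with DESeq2, 477 with edgeR, 568 with limma-voom, 648 with a pseudocount of 0.1, 71 with a pseudocount of 5, 4260 with no floor and 6 with a floor of 2. Genes that parted the arms within DMS454 (107 as reported) numbered 335, 354, 385, 337, 26, 4199 and 3 in that order, and within H1694 (69 as reported) 158, 209, 252, 205, 28, 2648 and 3.

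Leaving out each of the 12 libraries in turn gave 7455 to 7503 genes called in both arms, 8338 to 8382 over all libraries, 8275 to 8302 in the control arm, 8456 to 8606 in the CRISPR arm, 225 to 325 that depended on the arm, 87 to 165 within DMS454 and 68 to 76 within H1694; the 325 and the 165 came without the third DMS454 CRISPR library. Members of the lists called numbered 725 to 735, and protein-coding genes on the chromosomes 5795 to 5849. A group left with 2 libraries was assumed to vary like the other groups.

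Of the named genes none reversed under an alternative. RPL10 lost its call and SYP gained one under TMM and median-ratio scaling, edgeR, DESeq2 and limma-voom. A pseudocount of 5 ended the calls of AGER, ASL, HLA-DMA, ITGB6, ITGB8, LAMP3, REST, STARD4 and WWTR1, and a floor of 2 those of 32 genes. Leaving out the first DMS454 control library ended that of WWTR1. With the replicate number as a block (replicate block), 7486 genes were called in both arms and 232 depended on the arm, and no named gene changed its call; deviations of same-numbered libraries of the 2 lines correlated at -0.0717 to 0.126, so the numbers are taken only as names. Depth limits genes without a read: 3 reads over 6 libraries are 0.0223 CPM in DMS454 and 0.0202 CPM in H1694.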
